A study of Mus musculus with 16 samples.

Results

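The comparison of learned helpless (LH) with non-learned helpless (NLH) mice covered 8 of the 16 hippocampal RNA-seq libraries of the study, 4 LH and 4 NLH, chosen by their labels LH1 to LH4 and NH1 to NH4. All mice were wild-type C57BL/6 mice, 3 months of age and male per the study's methods. Both LH and NLH mice received 180 inescapable foot shocks of 0.4 mA and, 24 h later, a test session of 30 escape trials. They were assigned to LH or NLH by clustering on the number of failed escapes and the latency to escape, that is, by behavior and not by expression. Control (Ctrl) mice had only the 30 escape trials and homecage (HC) mice had neither session. The hippocampi of both sides were pooled for each mouse 3 h after the test, and each mouse gave 1 library of total RNA. The comparison asks which transcripts differ between mice that became helpless and mice that did not after the same inescapable shocks. Per the study's methods, an escape in the test ended the shock and a failed trial gave it in full. LH mice, with more failures and longer latencies, thus also had more shock in the test 3 h before sampling. Helplessness and this added shock cannot be told apart here.

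Learned helplessness is a failure to escape an avoidable stressor after exposure to an unavoidable one, and it is used in rodents as a model of depression-like symptoms. Stress reaches the hippocampus through corticosteroid receptors, through activity-dependent genes and through synaptic signaling. A gene can give several transcripts by alternative splicing, by the choice of start or end and by retention of introns, so a transcript can differ between groups while its gene does not. For that reason the values were read at 4 levels. These were the single transcript, the sum over the transcripts that carried a gene name, the sum over every transcript of a locus, assembled ones included, and the balance of a transcript against the rest of its gene. All values were FPKM, that is, fragment counts scaled to the length of the transcript and to the mapped fragments of the library. Differences are LH minus NLH on the log2(FPKM + 0.1) scale, which understates the change of low features. Adjusted p-values are from limma, fitted over all features and all 16 mice.

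LH3 and LH4 stood apart from the other mice. LH3 had 10846 and LH4 15504 of 80137 transcripts listed at an FPKM of 0, against 4872 to 7352 in the other 14 mice. Assembled transcripts without an Ensembl identifier took 21.7% of the FPKM in LH3 and 26.7% in LH4, and 18.8% to 21.0% in the others. The size factor of LH4, 0.812, was the lowest of the 16, while that of LH3, 0.941, was inside the range of the Ctrl and HC mice, and LH1 and LH2 had 1.14 and 1.19. The median SD of log2 values over 10436 genes was 0.36 in LH, 0.199 in NLH, 0.14 in Ctrl and 0.149 in HC. Values without both mice are given beside many results but not all, so a result without such a value may also depend on them. As hippocampi were whole tissue, fewer cells of a type and less RNA per cell cannot be told apart.

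**Figure D1:**
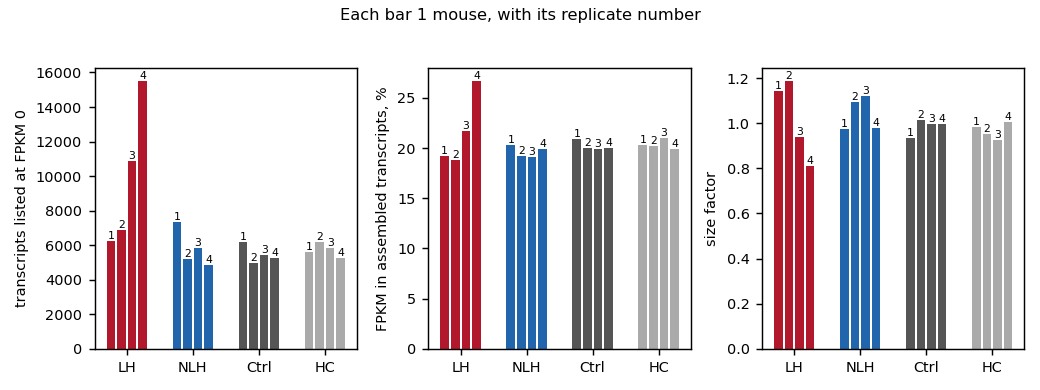
Number of transcripts listed at 0 FPKM, percent of FPKM in assembled transcripts and median-ratio size factor (y axes), 1 bar per mouse with its replicate number, by group (x axis). LH3 and LH4 had the most transcripts at 0 (10846 and 15504) and the highest assembled share (21.7% and 26.7%).

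At the level of gene names, 2 of 18287 genes passed an adjusted p of 0.05 (0.0109%), 1 higher and 1 lower in LH. Mtch1, which encodes a carrier-like protein of the outer mitochondrial membrane, rose in LH. Its summed FPKM was 7.47, 8.82, 10.1 and 16.5 in LH1 to LH4, and 1.78, 1.55, 1.28 and 1.78 in NLH1 to NLH4. Every LH mouse was above every NLH mouse, and the log2 difference was 2.62 ± 0.29 (SE; adjusted p = 0.00117). Ctrl mice had 5.85 ± 2.97 and HC mice 9.04 ± 0.539 (mean ± SD, n = 4), so the NLH mice were the low group of the 4. Without LH3 and LH4 the log2 difference was 2.29 (adjusted p = 0.0195).

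The difference of Mtch1 was not found over its whole locus, chr17:29332072-29347934 on the minus strand (GRCm38). The transcripts that carried the gene name held 12.8% of the FPKM of the locus, and assembled transcripts held the rest. Summed over all transcripts of the locus, Mtch1 ranged from 45.6 to 71.0 FPKM in LH and from 43.4 to 53.2 in NLH. These ranges overlapped, and the log2 difference was 0.19 ± 0.13 (SE; adjusted p = 0.746). Summed over loci, 1 of 19493 passed the threshold (0.00513%), and it was not the Mtch1 locus.

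The gene that passed at both levels was 1700065J18Rik, a long intergenic noncoding RNA on chr1:192841661-192842740, plus strand. It was listed at 0 in all 4 LH, all 4 Ctrl and all 4 HC mice. NLH1 to NLH4 had 1.06, 0.409, 0.429 and 0.33 FPKM. It thus fell in LH relative to NLH (adjusted p = 0.000456, log2 difference −2.60 ± 0.26, which depends on the added 0.1). No fold is given against values listed at 0, and NLH levels were near or below 1 FPKM, with NLH1 apart from the other 3. With 1 added to FPKM in place of 0.1, the adjusted p of 1700065J18Rik was 0.0624, and in a fit of the LH and NLH mice alone it was 0.304.

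Counts of genes depended on single mice. Leaving out NLH1 gave 11 genes, leaving out LH1 gave 9, and leaving out LH2 or LH4 gave 4. Leaving out LH3 and LH4 together gave 7 genes, 6 of them higher in LH.

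The next genes by p-value did not pass the adjusted threshold, and their values are given as description. They were the 10 with the smallest p on each side among genes with an average of at least 1 FPKM, and Mtch1 was 1 of them. Over all genes, 385 of 18287 (2.11%) had LH and NLH values that did not overlap. Among the 20 genes chosen in this way only Smim10l1 overlapped, a count that the choice by p-value largely fixes. The genes are taken here by what their products do.

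After Mtch1, Lztfl1 and Kcnv1 had the smallest p on the higher side. Lztfl1 encodes a regulator of ciliary membrane protein traffic. It had 11.9, 8.2, 8.97 and 9.5 FPKM in LH1 to LH4 and 6.14, 6.08, 4.36 and 4.79 in NLH1 to NLH4, with Ctrl at 5.36 ± 0.333 and HC at 4.28 ± 0.458. LH mice were the high group of the 4, with a log2 difference of 0.84 ± 0.14 (SE; adjusted p = 0.0978). Over its locus the groups were also apart, at 10.7 to 14.7 in LH and 6.71 to 8.85 in NLH (log2 0.61, adjusted p = 0.181). Kcnv1, a silent subunit that modifies voltage-gated potassium channels, had 5.2, 3.98, 4.17 and 5.46 FPKM in LH and 3.06, 2.32, 3.08 and 2.08 in NLH. Its log2 difference was 0.82 ± 0.16 (adjusted p = 0.164), and the locus sums were apart as well, at 5.52 to 6.51 in LH and 3.64 to 4.15 in NLH.

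Adcy8, a calcium-stimulated adenylyl cyclase, had 1.82, 1.67, 2.09 and 1.4 FPKM in LH and 0.844, 1.18, 0.799 and 0.586 in NLH (log2 0.98, adjusted p = 0.244). Over its locus the difference was within 1 SE of 0, at −0.09 ± 0.14 (SE), with overlapping ranges of 1.67 to 2.76 and 1.95 to 2.64. The same held for Rcc2, a regulator of chromosome condensation, with 1.74, 1.66, 3.66 and 5.3 FPKM in LH and 0.307, 0.49, 0.757 and 1.11 in NLH. Its log2 difference was 2.01 by gene name and −0.04 ± 0.16 (SE) over the locus, of which the named transcripts held 15.5%. LH3 and LH4 were the highest Rcc2 values, and without them the difference was 1.35.

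Svil, which encodes the actin-binding protein supervillin, had 3.49, 1.92, 2.85 and 2.96 FPKM in LH and 1.49, 1.23, 1.62 and 1.37 in NLH (log2 0.90, adjusted p = 0.247). All of its FPKM at the locus carried the gene name. Ubxn2a, a cofactor of the p97 ATPase, was at 3.61 to 5.68 in LH and 1.93 to 2.95 in NLH (log2 0.80), and at 0.31 over the locus. Lrrc58 was at 11.4 to 16.3 in LH and 8.66 to 11.0 in NLH (log2 0.52, adjusted p = 0.264). Lrrc58 passed the threshold in 4 of 17 alternatives, among them the one without LH3 and LH4 (log2 0.69, adjusted p = 0.0195). Over its locus Lrrc58 differed by 0.13 (adjusted p = 0.772), with overlapping ranges of 20.5 to 27.5 in LH and 20.7 to 24.5 in NLH. The antisense gene Gm29542 was at 1.64 to 6.55 in LH and 0.0106 to 1.21 in NLH, and as the strand of the libraries was not given, its reads and those of the gene opposite cannot be told apart.

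Smim10l1, which encodes a small integral membrane protein, showed the widest split inside a group. LH1 to LH4 had 12.4, 8.06, 13.4 and 12.3 FPKM and NLH2 to NLH4 had 0.122, 0.123 and 0.097, but NLH1 had 9.49. The NLH1 value was inside the LH range. The log2 difference was 4.37 ± 0.99 (SE; adjusted p = 0.264) with NLH1 in the fit. Without NLH1 it was 5.74 (adjusted p = 0.000776), so this mouse decided the call. Over the locus the difference was smaller, 2.39 (adjusted p = 0.246), with overlapping ranges of 9.62 to 14.2 in LH and 1.33 to 10.8 in NLH. Ctrl mice had 3.96 ± 1.09 and HC mice 0.276 ± 0.479, below all LH mice.

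On the lower side, Atp5j2, a subunit of the ATP synthase, had 3.83, 2.55, 0.888 and 0.941 FPKM in LH and 4.64, 6.81, 5.38 and 4.88 in NLH (log2 −1.60, adjusted p = 0.264). The lowest values were LH3 and LH4, and without them the difference was −0.76. Rmnd1, needed for mitochondrial translation, was at 2.36 to 3.83 in LH and 4.41 to 6.81 in NLH (log2 −0.73). Coq8a, which acts in coenzyme Q synthesis, had 4.92, 4.27, 3.5 and 3.74 in LH and 6.78, 6.74, 6.52 and 5.29 in NLH (log2 −0.62, adjusted p = 0.284). Without LH3 and LH4 Rmnd1 differed by −0.56 and Coq8a by −0.45. For Atp5j2 the NLH mice were above Ctrl (2.70 ± 0.9) and HC (2.06 ± 0.548), and the LH mean was 2.05.

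Of the other lower genes, Arnt encodes the common partner of hypoxia-inducible and aryl hydrocarbon receptor factors. It had 1.79, 1.26, 1.03 and 1.47 FPKM in LH and 2.32, 3.12, 3.3 and 2.94 in NLH (log2 −1.03, adjusted p = 0.264). Over the Arnt locus the ranges were 6.57 to 7.26 and 7.81 to 8.49, still apart but by a log2 difference of −0.23. Cabp1, a neuronal calcium-binding protein, was at 4.2 to 7.3 in LH and 8.06 to 10.6 in NLH (log2 −0.64, adjusted p = 0.299). Ppp4r1, a regulatory subunit of protein phosphatase 4, was at 2.28 to 3.19 and 3.74 to 5.12 (log2 −0.57). Polr2h, a subunit shared by the nuclear RNA polymerases, was at 1.13 to 2.58 and 2.86 to 4.14 (log2 −0.87). Sat2, of the polyamine acetyltransferase family, was at 1.07 to 1.87 and 2.03 to 3.32 (log2 −0.78). The noncoding genes Gm3764 and Gm26592 differed by −0.53 and −0.78, and Gm26592 is antisense, with the limit given for Gm29542. Without LH3 and LH4 both Ppp4r1 and Gm3764 differed by −0.39.

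**Figure D2:**
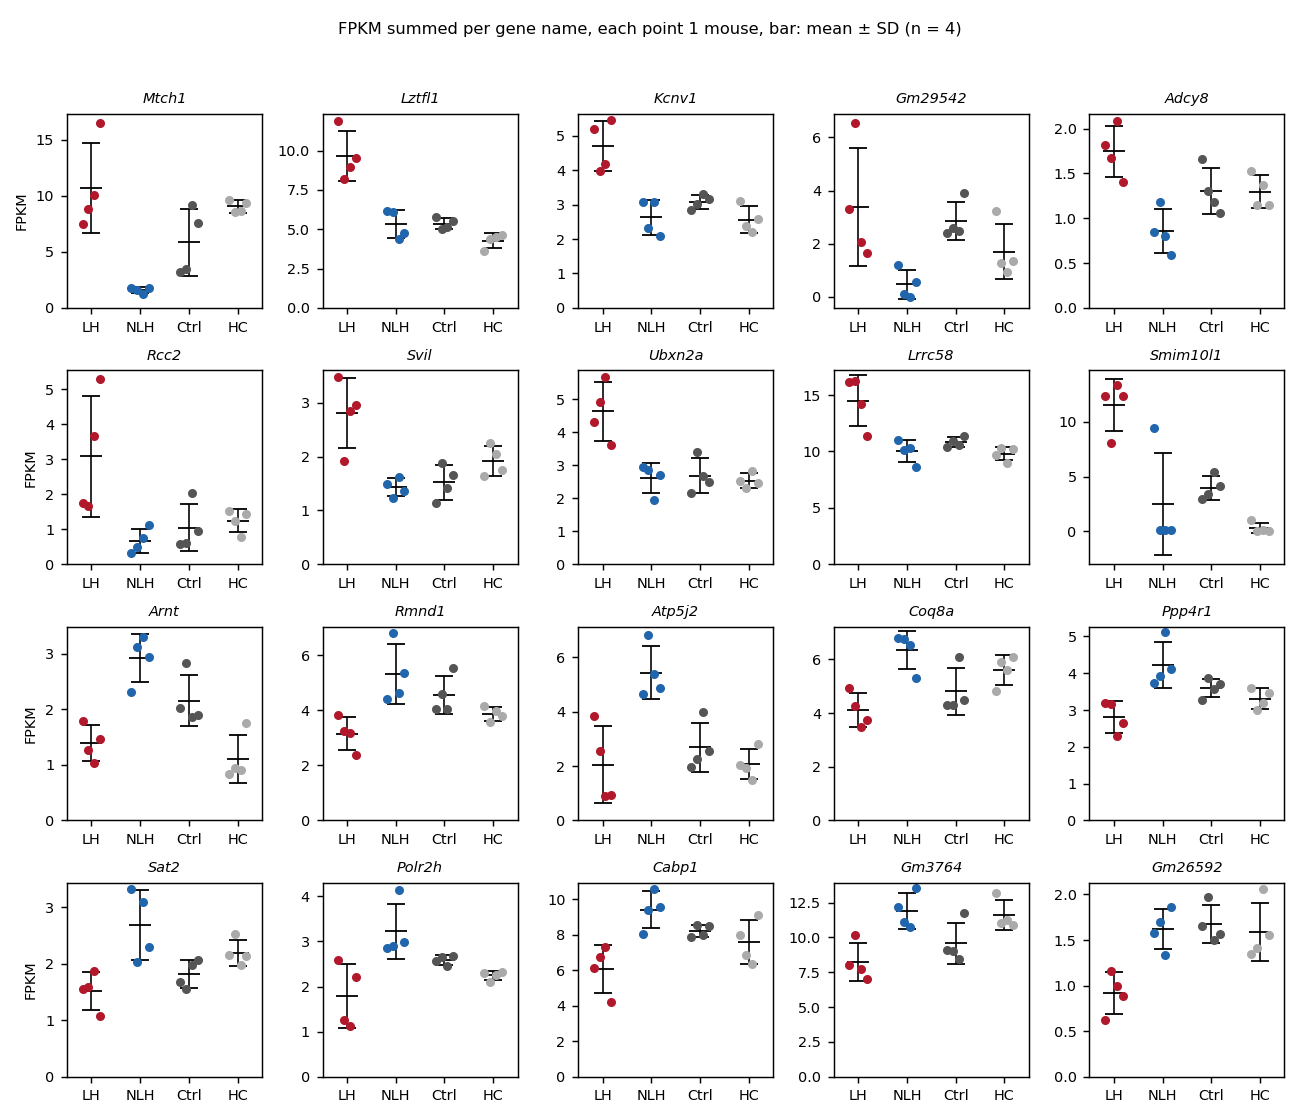
FPKM summed per gene name (y axis) in LH, NLH, Ctrl and HC mice (x axis) for the 20 genes described, 1 point per mouse, bar mean ± SD (n = 4). Mtch1 was at 1.28 to 1.78 in NLH and 7.47 to 16.5 in LH, and NLH1 of Smim10l1 (9.49) lay inside the LH range.

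**Figure D3:**
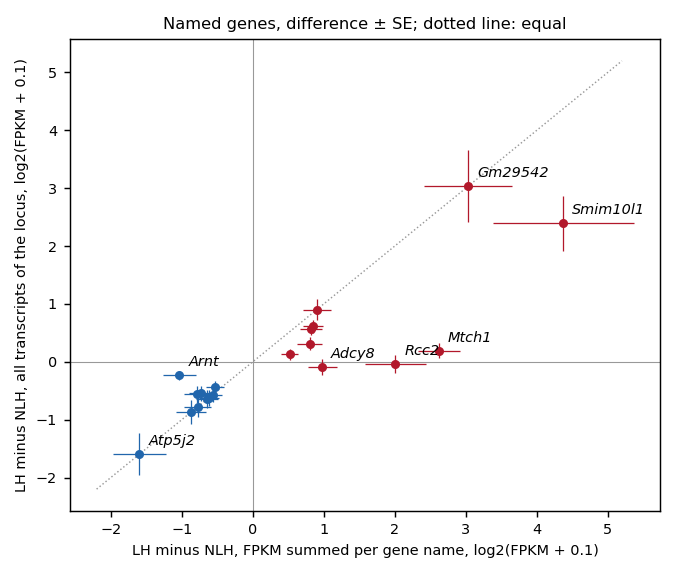
LH minus NLH difference with FPKM summed per gene name (x axis) against FPKM summed over the whole locus (y axis), both log2(FPKM + 0.1), ± SE, for the same 20 genes; red, higher in LH by gene name, blue, lower. Mtch1 (2.62 against 0.19), Rcc2 (2.01 against −0.04), Smim10l1 (4.37 against 2.39) and Adcy8 (0.98 against −0.09) lay far below the dotted line of equal differences.

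Among single transcripts, 33 of 80137 passed the adjusted threshold (0.0412%), 11 higher and 22 lower in LH. They belonged to 29 named genes, 1 transcript each, and 4 were assembled transcripts without a gene name. In 17 of the 22 lower transcripts all LH mice were below 0.1 FPKM, and in 8 of the 11 higher ones all NLH mice were. The same count over all 80137 was not made, and selection by log2 difference favors transcripts near 0 in 1 group. Levels were low, with a group mean of at least 1 FPKM in 13 of the 33. Of the 29 annotated transcripts, 14 were protein-coding, 12 were retained-intron or processed transcripts, 1 was a target of nonsense-mediated decay and 2 were intergenic RNAs. The locus that held the transcript passed the threshold in 1 case, 1700065J18Rik. With LH3 and LH4 left out, 14 of the 33 passed, and 10 passed whichever of the 8 mice was left out. The count over all transcripts was 242 without NLH1, 151 without LH2, 124 without LH1, 76 without LH3 and LH4, 19 without LH4 and 16 without NLH2.

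The junctions below are shown because each belongs to 1 annotated transcript of its gene. A read across it can tell that transcript from the other annotated ones. Assembled transcripts had no coordinates and were not compared, so some may share the junction. They are spliced sequences from GENCODE vM21 (GRCm38), 5′ to 3′ on the transcript, with the 10 bases on each side of the junction in capitals. 1700065J18Rik joined exon 1 to exon 2 across chr1:192841729-192842452, plus strand. The Oxct1 transcript did so across chr15:4047312-4047465, plus strand, both ends being noncoding. The Pnisr junction joined exons 11 and 12 in coding sequence across chr4:21874672-21874913, plus strand. The junctions of Serpinb6a (chr13:33931646-33935767, minus strand) and Ly6e (chr15:74956713-74957777, plus strand) joined exons 1 and 2 and overlapped the 5′ UTR.
1700065J18Rik: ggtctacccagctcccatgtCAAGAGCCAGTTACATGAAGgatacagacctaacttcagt
Oxct1: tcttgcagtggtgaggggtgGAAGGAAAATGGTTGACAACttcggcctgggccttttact
Pnisr: taagtCCCGATCAAGATCAACAACCcctcc
Serpinb6a: ccgtgACGCAGCCAAGCTCACCATCatgga
Ly6e: tcctcTAGGAGAACTTAGGCTTCTTtggct

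Transcripts of signaling and trafficking genes were found on both sides. Transcript ENSMUST00000188042.1 of Ly6e, which encodes a membrane-anchored surface protein, rose in LH, with 3.05, 5.24, 6.14 and 3.5 FPKM in LH1 to LH4 and under 0.1 in all NLH mice (log2 5.46 ± 0.83, SE; adjusted p = 0.0303). The remaining named Ly6e transcripts together were at 25.2 to 41.7 in LH and 32.4 to 40.3 in NLH and overlapped. Ctrl mice had a mean of 0.925 of the Ly6e transcript and HC mice 0.0354. With LH3 and LH4 left out, its difference was 5.36 and the adjusted p 0.13. Spag9, a scaffold for JNK kinases and motor proteins, rose by its transcript ENSMUST00000041956.13 (2.3, 1.86, 3.58 and 1.11 in LH, under 0.1 in NLH, adjusted p = 0.00746). Ctrl and HC mice also had it, at 1.06 and 1.47, so for Spag9 the NLH mice were the group without it.

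Itsn1 encodes intersectin, a scaffold of endocytosis. Its short processed transcript ENSMUST00000124094.7 fell, with under 0.1 FPKM in all LH mice and 1.84, 1.86, 2.79 and 5.3 in NLH1 to NLH4 (log2 −4.80 ± 0.49, SE; adjusted p = 0.00231). It was 20.9% of the named Itsn1 FPKM in NLH, and Ctrl and HC mice had more of it, 5.21 and 5.64. The rest of Itsn1 was at 8.62 to 14.3 in LH and 8.76 to 13.2 in NLH. A retained-intron transcript of Dvl2, a mediator of Wnt signaling, fell from 0.442, 1.23, 1.28 and 1.34 in NLH to under 0.1 in all LH mice (adjusted p = 0.0139, and 0.0554 with LH3 and LH4 left out). That of Iqce, which encodes a ciliary protein, was listed at 0 in all LH mice and was 1.06, 1.12, 1.43 and 2.72 in NLH (adjusted p = 0.00746).

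In metabolism and proteolysis, a processed transcript of Oxct1, the enzyme that activates ketone bodies for use, fell. It was under 0.1 FPKM in all LH mice and 1.67, 2.83, 3.46 and 2.02 in NLH1 to NLH4 (log2 −4.62 ± 0.58, SE; adjusted p = 0.00976). Ctrl mice had 0.199 and HC mice 0.00487 on average, so here the NLH mice were the high group. The other Oxct1 transcripts overlapped, at 24.7 to 39.9 in LH and 29.5 to 35.8 in NLH. Atg4b, a protease of autophagy, had a retained-intron transcript at 0, 0.256, 0 and 0 in LH and 1.55, 0.723, 1.08 and 1.33 in NLH (adjusted p = 0.0199, and 0.0853 with LH3 and LH4 left out). Serpinb6a, a serine protease inhibitor, had a coding transcript at 0.998, 0.559, 1.88 and 4.98 in LH and under 0.1 in NLH (adjusted p = 0.0236). The highest Serpinb6a values were LH3 and LH4, and the call was lost without them (log2 3.09 in place of 4.04, adjusted p = 0.0637).

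Among nuclear proteins, transcript ENSMUST00000161054.7 of Phc1, a Polycomb subunit, rose from 0.0292, 0.193, 0.0212 and 0.287 in NLH to 2.17, 1.52, 1.25 and 2.23 in LH (log2 3.17, adjusted p = 0.00767). Ctrl mice had 1.30 and HC mice 1.18. The transcript ENSMUST00000029911.11 of Pnisr, a splicing-associated protein, fell from 0.36, 2.77, 2.16 and 1.27 in NLH to under 0.1 in every LH mouse (adjusted p = 0.0308, and 0.116 with LH3 and LH4 left out). Nol4, a nucleolar protein, had transcript ENSMUST00000164893.7 at 0.596 in LH1 and under 0.1 in the other 3, against 1.21, 3.21, 1.74 and 3.22 in NLH (adjusted p = 0.0236, and 0.123 with LH3 and LH4 left out). The rest of Nol4 went the other way, at 8.06 to 12.5 in LH and 3.79 to 7.97 in NLH.

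Of the assembled transcripts, MSTRG.75844.2 fell, at 0.32 in LH3 and under 0.1 in the other LH mice against 0.785, 1.56, 2.07 and 1.05 in NLH (adjusted p = 0.0236). MSTRG.16274.1 rose, at 1.58, 0.731, 2.1 and 1.44 in LH and 0.426, 0.0931, 0.0869 and 0.25 in NLH (adjusted p = 0.034, and 0.148 with LH3 and LH4 left out). MSTRG.65180.10 fell and MSTRG.9379.1 rose (adjusted p = 0.114 and 0.0294 with LH3 and LH4 left out). The passing transcripts with means under 1 FPKM in both groups were lower for Pdlim5, Ylpm1, 1700065J18Rik, Slc23a2, Tbc1d31, Hnrnpk, Cct4, Osbpl9, Meig1, C130026L21Rik, Zfp414, Ctdnep1 and Mapk8ip3. They were higher for Pgm3, Ktn1, Rora, Nudt12 and Smg1. With LH3 and LH4 left out, those of Tbc1d31, Hnrnpk, Cct4, Osbpl9, Meig1, C130026L21Rik, Zfp414, Ctdnep1, Mapk8ip3, Ktn1 and Nudt12 did not pass. Their adjusted p ran from 0.068 for Tbc1d31 to 0.14 for Mapk8ip3.

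Some of these low transcripts were clear between the groups, and their values are added as examples chosen after they were seen. The smallest p of all 80137 belonged to transcript ENSMUST00000168967.8 of Pdlim5, a scaffold that binds kinases and the actin cytoskeleton. It was under 0.1 FPKM in all LH mice and 0.777, 0.839, 0.86 and 0.641 in NLH1 to NLH4 (log2 −3.07 ± 0.25, SE; adjusted p = 0.000331), and it was 23.0% of the named Pdlim5 FPKM in NLH. Ctrl and HC mice had it too, at 0.974 and 0.66 on average, so the LH mice were the group without it. Smg1 encodes a kinase of nonsense-mediated decay, and its transcript ENSMUST00000032891.14 was 0.672, 0.601, 0.422 and 0.0985 in LH and under 0.1 in all NLH mice (adjusted p = 0.0303). The transcript of Ktn1, a kinesin-binding protein, that is annotated as a target of nonsense-mediated decay was 0.954, 0.181, 1.08 and 0.95 in LH and under 0.1 in NLH (adjusted p = 0.0236, and 0.0937 with LH3 and LH4 left out). A processed transcript of the nuclear receptor gene Rora was highest in LH3 and LH4, at 0.179, 0.562, 1.67 and 1.39 in LH1 to LH4 and under 0.1 in NLH (log2 3.04, adjusted p = 0.0248). Without LH3 and LH4 the difference of the Rora transcript was 2.09 (adjusted p = 0.0143). For Smg1, Ktn1 and Rora the Ctrl and HC means were under 0.1, so LH was the group that stood apart from the other 3.

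**Figure D4:**
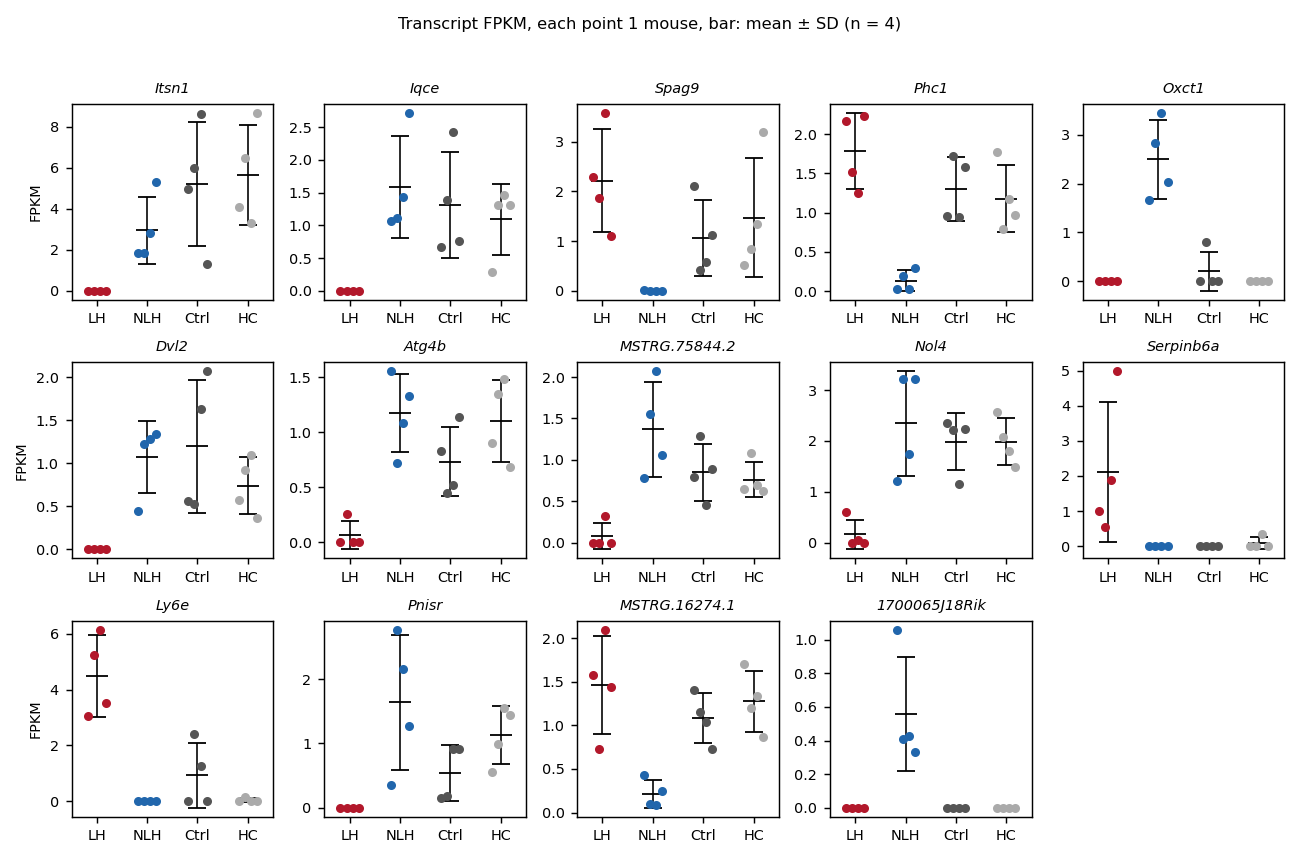
FPKM (y axis) of the 13 passing transcripts with a group mean of at least 1 and of 1700065J18Rik in LH, NLH, Ctrl and HC mice (x axis), 1 point per mouse, bar mean ± SD (n = 4). The Ly6e transcript was at 3.05 to 6.15 in LH and under 0.1 in NLH, and that of Itsn1 was under 0.1 in LH only.

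The Ctrl levels of these transcripts are given as description, as the same counts over all transcripts were not made. Of the 22 lower in LH, 13 were above 0.1 FPKM in all 4 Ctrl mice and 4 were below 0.1 in all 4. Of the 11 higher in LH, 5 were above 0.1 in all Ctrl mice and 4 below 0.1 in all. The 1700065J18Rik and Tbc1d31 transcripts were below 0.1 in every LH, Ctrl and HC mouse. LH vs. NLH thus held transcripts for which either group stood apart from Ctrl, and those contrasts were not tested here.

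How far reads can separate the passing transcripts from others of the same gene was read from the annotation. Of the 29, 12 had a splice junction found in no other annotated transcript of the gene (41.4%, against 52.0% of 57252 transcripts of genes with several). Neither a junction nor a base of their own was found for 5 (17.2%, against 13.1%), those of Spag9, Phc1, Nol4, Hnrnpk and Mapk8ip3. For these 5 the FPKM rest wholly on how the program divided shared reads. The other passing transcripts also share bases with others of their gene, and assembled transcripts were not compared. Whether the division of shared reads bears on the differences was not tested.

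The balance of a transcript against the rest of its gene passed for 9 of 11135 transcripts (0.0808%), 5 toward the transcript in LH and 4 away from it. Of these, 5 also passed by their own FPKM, those of Itsn1, Spag9, Nol4, Ly6e and Phc1. The largest difference was that of the Mtch1 retained-intron transcript ENSMUST00000151739.1, at −5.77 ± 0.70 (SE; adjusted p = 0.00532). It was 81.9% of the named Mtch1 FPKM in NLH and 7.02% in LH. The transcript itself was at 0.652, 1.43, 0.674 and 0.253 in LH and 1.43, 1.22, 1.28 and 1.3 in NLH, and the groups overlapped. The remaining named Mtch1 transcripts were at 6.82 to 16.3 in LH and at most 0.474 in NLH.

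A similar pattern, with the rest of the gene apart and the transcript less so, was seen for Rmnd1 and Wdfy3. Rmnd1 ENSMUST00000042251.10 was 51.7% of its gene in LH and 21.3% in NLH (balance 1.97, adjusted p = 0.0177), with 1.62, 1.62, 1.59 and 1.68 FPKM in LH and 1.04, 1.25, 1.06 and 1.16 in NLH. The rest of Rmnd1 was at 0.681 to 2.21 in LH and 3.36 to 5.56 in NLH. Wdfy3, a large scaffold of selective autophagy, had a balance of 2.33 (adjusted p = 0.0367), its rest being 0.675 to 2.44 in LH and 2.74 to 5.51 in NLH. Over its locus the log2 difference was −0.02.

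Prkacb, a catalytic subunit of protein kinase A, had a retained-intron transcript, ENSMUST00000144369.1, at 1.24 in LH1 and under 0.1 in the other LH mice, against 2.88, 4.28, 2.93 and 3.86 in NLH. Its balance fell by 4.32 on the log2 scale (adjusted p = 0.04). The rest of Prkacb was at 31.7 to 47.2 and 31.8 to 37.7, so the transcript was 8.91% of the gene at its higher level. The tenth transcript, of the receptor phosphatase gene Ptprg, did not pass (2.39, adjusted p = 0.0629). Without LH3 and LH4 no balance passed by limma, and 1169 of 11135 had an unadjusted p below 0.05. In that fit the differences were −5.15 for Itsn1, −4.86 for Mtch1, 4.12 for Spag9, 5.22 for Ly6e and 1.56 for Rmnd1, with adjusted p of 0.0662, 0.0665, 0.0694, 0.191 and 0.0662. Leaving out NLH1 gave 94, LH2 gave 40 and LH1 gave 32, and leaving out NLH2 or NLH4 gave 3 and NLH3 gave 4.

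Gene lists were described by the members with an unadjusted limma p below 0.05, beside the same count over all genes, which was 502 higher (2.75%) and 876 lower (4.79%) of 18287. The median difference over all genes was −0.06. Summed over loci, 664 of 19493 were higher (3.41%) and 782 lower (4.01%). The split moved with the scaling and with LH3 and LH4. It was 788 higher and 1117 lower with size factors, 1236 and 483 with array weights, and 1108 and 591 without LH4. Without LH3 and LH4 it was 2477 higher (13.5%) and 329 lower (1.8%), with a median of 0.13. The medians of the 15 lists ran from −0.08 to 0.04, and 5 of them were above 0. Without LH4 all 15 were above 0, from 0.01 to 0.17, so no direction is given for any list.

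None of 26 immediate early genes, which neurons switch on with activity, had an unadjusted p below 0.05 in either direction. Fos was at 0.556 to 2.59 FPKM in LH and 0.759 to 2.04 in NLH, Arc at 9.04 to 12.3 and 7.1 to 10.6, and Npas4 at 0.401 to 0.702 and 0.44 to 0.708. All 3 ranges overlapped. Without LH3 and LH4, 8 of the 26 were higher and none lower, with a median of 0.33, beside 13.5% higher over all genes. Of 25 glucocorticoid response genes, Crh, the corticotropin-releasing hormone, was higher (0.119 to 0.513 and 0.0572 to 0.273) and Zbtb16, a transcription factor, was lower (1.82 to 3.2 and 2.07 to 4.4). Both pairs of ranges overlapped, and neither passed the adjusted test. The difference of Zbtb16 was −0.52, and −0.16 with LH3 and LH4 left out, where 6 of the 25 genes were higher and none lower, beside the same 13.5%.

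At the synapse, none of 24 glutamate receptor genes and none of 22 GABA genes was past an unadjusted p of 0.05. With LH3 and LH4 left out, 6 of the 24 and 9 of the 22 were higher and none lower, beside 13.5% higher over all genes. Of 38 postsynaptic genes 3 were higher and none lower. Lrrtm2, a synaptic adhesion protein, was at 8.64 to 12.2 FPKM in LH and 5.04 to 9.29 in NLH (log2 0.62, adjusted p = 0.374). Its relative Lrrtm4 was at 12.0 to 14.3 and 8.5 to 11.7 and did not overlap (log2 0.39), but its locus differed by 0.16. The third was Prkar2b, a regulatory subunit of protein kinase A (log2 0.31). In the fit that left out LH3 and LH4, 11 of the 38 were higher, beside the same 13.5%.

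Of 40 presynaptic release genes, Napa and Ppfia2 were higher and Unc13b lower. Unc13b, a priming factor of synaptic vesicles, had 4.74, 4.65, 4.58 and 1.58 FPKM in LH and 6.15, 6.66, 5.36 and 6.72 in NLH (log2 −0.78, adjusted p = 0.469). The groups did not overlap, and LH4 was the lowest. Without LH4 the difference of Unc13b was −0.40, and without both LH3 and LH4 −0.39. Napa, which recycles fusion complexes, differed by 0.26, and Ppfia2 by 0.31 by name, 0.14 without LH3 and LH4 and −0.04 over its locus. Of 39 monoamine, peptide and cannabinoid signaling genes the somatostatin receptor gene Sstr3 was lower (log2 −0.38, and −0.15 without LH3 and LH4). Of 34 neurotrophin and growth factor genes Crtc2, a coactivator of CREB, was lower, at 1.64 to 3.59 in LH and 3.6 to 5.01 in NLH (log2 −0.60, adjusted p = 0.558, and −0.24 without LH3 and LH4). The fit that left out both mice had 6 of 40, 6 of 39 and 8 of 34 genes higher in these 3 lists, and 1, 0 and 0 lower, beside 13.5% and 1.8% over all genes.

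Splicing factors had 6 of 49 genes higher and 2 lower, against 2.75% and 4.79% over all genes, and none passed the adjusted test. The higher ones were Elavl4, Qk, Sf3b1, Srsf1, Srsf3 and Srsf7, with log2 differences of 0.37, 0.27, 0.38, 0.32, 0.33 and 0.56. Srsf7 had 9.29, 8.29, 6.57 and 7.75 FPKM in LH and 7.37, 5.13, 3.8 and 5.56 in NLH, so only NLH1 reached the LH range. The same mouse was the highest NLH mouse for Elavl4, Qk, Sf3b1 and Srsf1. U2af1, which recognizes the 3′ splice site, was lower at 2.9, 1.76, 1.3 and 0.662 in LH and 2.99, 4.25, 2.78 and 2.85 in NLH (log2 −1.07, adjusted p = 0.442), and Srrm2 differed by −0.32. The lowest U2af1 values were LH3 and LH4, and without them the difference was −0.47. In that fit 13 of the 49 genes were higher and none lower, beside 13.5% higher over all genes.

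Of 57 chromatin genes, Kat2b and Sirt1 were higher and Hdac7 lower. Kat2b, an acetyltransferase, was 12.9 in LH4 and 3.62 to 4.55 in the other LH mice, against 2.32 to 4.5 in NLH, and the log2 difference was 0.67, 0.26 without LH4 and 0.34 without LH3 and LH4. Sirt1, a deacetylase, differed by 0.29 and Hdac7 by −0.48, or −0.32 without LH3 and LH4. Of 27 heat shock genes Hspa4l was higher (21.9 to 25.2 and 17.9 to 21.6, log2 0.22), and of 21 circadian genes Per2 was lower (log2 −0.41, −0.10 without LH3 and LH4, and −0.08 over its locus). Leaving out both mice gave 2 of 57, 12 of 27 and 3 of 21 genes higher in these lists and none lower, beside 13.5% higher over all genes.

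For mitochondria, 1 of 39 respiratory chain genes was lower, Ndufs8, a subunit of complex I, at 5.72, 4.89, 1.21 and 1.9 FPKM in LH and 6.09, 6.69, 8.59 and 5.78 in NLH (log2 −1.20, adjusted p = 0.452). The lowest values were LH3 and LH4. The difference without them was −0.34 (adjusted p = 0.488), and over the locus it was 0.00. Of 31 genes of mitochondrial carriers and dynamics, Mtch1 passed and Immt, of the inner membrane organizing complex, was higher by 0.55 at an unadjusted p below 0.05, and by 0.36 without LH4. Leaving out LH3 and LH4 gave 11 of 39 and 12 of 31 genes higher and none lower, beside 13.5% higher over all genes.

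**Figure D5:**
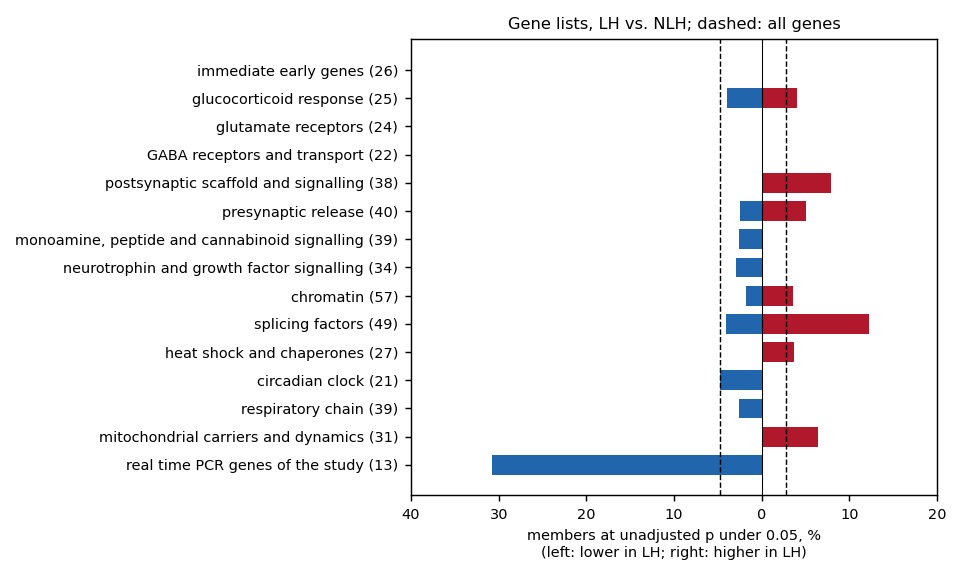
Percent of the measured members of 15 gene lists (y axis, number of members in parentheses) with an unadjusted limma p below 0.05, higher in LH to the right and lower in LH to the left (x axis). Dashed lines are the shares over all genes, 2.75% higher and 4.79% lower; splicing factors had 6 of 49 higher, and the split over all genes moved with LH3 and LH4.

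Of 13 genes of a real time PCR list, 4 were lower and none higher at an unadjusted p below 0.05. Over all genes 4.79% were lower and 2.75% higher. The study drew the list partly from its calls on these samples, with Gapdh as PCR reference, so it is not independent evidence. Its PCR, on more mice per group, reported LH vs. NLH differences for Nub1, Grik2, Dlg2, Rab3a, 1700109K24Rik, Gm16364 and Miat. It tested Prkacb, Rbfox2, Tcf4, Cacnb4 and Gm26859 against Ctrl only. The study's RNA-seq calls were per transcript, unlike the sums here. The 4 lower genes were noncoding RNAs, of which Gm16364 and 1700109K24Rik are antisense, with the limit given for Gm29542. Gm16364 was at 0.404, 0.199, 0.153 and 0.376 FPKM in LH and 0.527, 0.699, 0.461 and 0.676 in NLH (log2 −0.90, adjusted p = 0.434). 1700109K24Rik was at 1.19 to 1.77 and 2.24 to 2.51 (log2 −0.66), Gm26859 at 0.461 to 0.65 and 0.707 to 0.782 (log2 −0.39), and Miat, a nuclear long noncoding RNA, at 12.3 to 18.79 and 18.82 to 21.5 (log2 −0.36). None of these overlapped, and without LH3 and LH4 Miat differed by −0.15. In that fit 3 of the 13 genes were higher and 2 lower, beside 13.5% and 1.8% over all genes. The log2 differences of Nub1, Rab3a, Dlg2, Grik2, Tcf4, Prkacb, Rbfox2 and Gapdh lay between −0.15 and 0.08 with overlapping values, and all but that of Dlg2 changed sign in some alternative. Cacnb4, a calcium channel subunit, was 133 in LH3 and 15.02 to 39.8 in the other LH mice, against 16.9 to 28.2 in NLH (log2 0.69, adjusted p = 0.76, and 0.10 without LH3).

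The labeled tissue was checked with markers of 15 cell types and neighboring regions, summed in FPKM. The markers of dentate granule, CA1 and CA3 neurons were all measured except Pou3f1, and their sums did not separate the groups. Over the 15 sums the ratio of LH to NLH ran from 0.80 for meninges to 1.55 for choroid plexus, and the exact permutation p (two-sided, 4 against 4 mice, smallest possible 0.0286) from 0.40 to 1.00. Choroid plexus markers were at 2.70 to 107 in LH and 5.21 to 72.4 in NLH, with 106.6 in LH2 and 2.698 in LH4, so their level varied widely within both groups. The choroid plexus ratio was 1.02 without LH2 and 2.50 without NLH3. In the fit without LH3 and LH4, 5 of 8 choroid plexus markers were higher at an unadjusted p below 0.05, with a median difference of 1.84 in place of 0.27. Of 6 thalamus markers 4 were higher there, with a median of 0.59 in place of 0.20, and both lists had none with all mice. Over all genes that fit had 13.5% higher and a median of 0.13, and the medians of the 15 marker lists ran from 0.12 to 1.84. Oligodendrocyte markers ran from 291.9 in LH4 to 565.3 in LH2, and in NLH from 430.9 to 546. Their part in the gene results was not tested. Single markers at an unadjusted p below 0.05 included Dock10 of granule neurons, Wfs1 of CA1 and Pecam1 of endothelium on the lower side, and Slco1a4 of endothelium on the higher side. Without LH3 and LH4 their differences were −0.22, −0.49, −0.12 and 0.53, in place of −0.56, −2.10, −0.43 and 0.32.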

How the data were processed

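Libraries of total RNA from 16 mice (4 each of LH, NLH, Ctrl and HC) were read from the deposited FPKM per transcript, which the authors made with StringTie 1.2.3 (merged assembly) and Cufflinks on mm10. The study's methods name HISAT2 as aligner and the submitters' processing notes STAR 2.42a. FPKM hold no counts, so depth per sample is unknown and no counting interval is given. FPKM were summed per gene name (18287) and per locus (19493) from 80137 transcripts. No column was identical to another. Of 61220 Ensembl transcripts 99.4% were matched, regardless of version, to GENCODE vM21 (GRCm38). The matched transcripts included 14 with a single exon and 0 on chromosomes X, Y or the mitochondrial genome, so listed genes there were not analysed here.

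Differences between LH and NLH were tested with limma 3.58.1 (R 4.3.3, with version 1.17.8 of data.table; trend and robust moderation, 1 mean per group, all 16 mice) on log2(FPKM + 0.1), with Benjamini-Hochberg adjustment over all features and a threshold of 0.05. The balance compared a transcript with the other transcripts of its gene name, both averaging at least 1 FPKM. The code was tested on simulated data. Marker sums were compared by exact permutation (70 arrangements, Python 3.11.15, numpy 2.4.6, pandas 2.3.3, matplotlib 3.10.9 for plots). p-values measure the spread between mice, and limma pooled it for each feature over all 16 mice. As the median SD was 0.36 in LH and 0.14 in Ctrl, the pooled spread can understate that of LH. With LH and NLH mice alone, 651 genes had an unadjusted p below 0.05 by limma, against 1378 with all 16 mice. Genes were named if they passed the threshold or were among the 10 smallest p on each side at an average of at least 1 FPKM. All passing transcripts, the 10 smallest p of the balance, and list members at an unadjusted p below 0.05 were named too, with the 13 PCR genes, except 1 list member that is not reported here. Crh, Gm16364 and Gm26859 are low genes described with their lists. Members and lists were chosen with earlier results of these data known. Alternatives were other pseudocounts, filters, scalings, fits and left-out mice, and the methods' t-test on FPKM.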

Additional observations from a re-analysis of the deposited data

Results flagged for a closer look

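Of 161 groups of 4 mice checked, 13 held a mouse far from the other 3 by Dixon's test, and chance gives about 1 in 20 groups. NLH1 was such a mouse for 1700065J18Rik (1.06 FPKM, others 0.33 to 0.429), Smim10l1 (9.494, others 0.097 to 0.123), Sf3b1 (26.07, others at most 18.6), Miat (18.82, others 21.07 to 21.52) and the Dvl2 transcript ENSMUST00000152732.1 (0.4424, others 1.23 to 1.34). NLH2 was apart for U2af1 (4.254), NLH3 for Polr2h (4.145) and NLH4 for Pecam1 (1.569). LH4 was apart for Kat2b (12.87, others 3.62 to 4.55) and Unc13b (1.582, others 4.58 to 4.74). The other LH mice so marked were LH2 for the Atg4b transcript ENSMUST00000186124.1 (0.2564), LH3 for MSTRG.75844.2 (0.3195) and LH1 for the Nol4 transcript ENSMUST00000164893.7 (0.5961). NLH1 accounted for 5 of the 13.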

How the results depend on the processing

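The counts of passing features, 2 genes, 33 transcripts and 9 balances, moved with most settings, and the cause was not tested. With 1 added to FPKM they were 1, 11 and 14, with 0.01 added 58 transcripts passed. A stricter filter (an average of 1 FPKM, 5 for the balance) left 1, 4 and 0 (275 of 1755 balances at an unadjusted p below 0.05 by limma). A fit of the 8 LH and NLH mice alone gave 1, 20 and 5, of which 1, 11 and 3 had passed in the main fit. Array weights left 10 transcripts and 3 balances, and without trend or robust moderation 58 transcripts passed. Leaving out 1 mouse at a time gave 2 to 11 genes (11 without NLH1), 16 to 242 transcripts (242 without NLH1) and 3 to 94 balances (94 without NLH1). Without LH3 and LH4 the counts were 7, 76 and 0 (1169 balances at an unadjusted p below 0.05). The methods' t-test gave 628 genes and 3535 transcripts unadjusted and 0 of each adjusted.

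Sums over loci, an alternative chosen after seeing the data, left 1 gene. There the difference was −0.0893 (SE 0.139) for Adcy8, −0.0396 (SE 0.16) for Rcc2, 0.00248 for Ndufs8 and −0.039 for Ppfia2. Each was near 0, with the opposite sign to the sum by gene name. Of the tested values of named genes, transcripts and balances under an alternative, 1389 kept direction and side of the threshold, 259 lost the threshold and 11 gained it. Only passing features can lose the threshold, and the 1389 include genes that never passed, so these counts do not measure how stable the calls were. Of the 33 passing transcripts, 10 passed whichever of the LH and NLH mice was left out. Of 9 further genes of the real time PCR list, with no call, 7 changed sign in 28 of 153 values. The labels number mice 1 to 4 in each group. Deviations of same-numbered LH and NLH mice correlated at −0.08 to 0.11, and 1 of 4 LH mice correlated best with its own number, so the numbers do not pair the mice. With the number as a replicate block, 2 genes, 28 transcripts and 12 balances passed. Depth is unknown from FPKM, and features under 1 FPKM are the least certain.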

Other observations

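Among the genes described by p-value, several placed the NLH mice apart from the other 3 groups, a pattern noticed after the values were seen and not tested. Atp5j2 was 5.43 ± 0.975 FPKM in NLH and 2.05 to 2.70 as group means elsewhere, and Mtch1 was 1.60 ± 0.237 in NLH and 5.85 to 10.7 elsewhere. For Lztfl1 it was the LH mice, at 9.65 ± 1.6 against group means of 4.28 to 5.36. Ubxn2a was alike, at 4.62 ± 0.884 in LH and 2.53 to 2.68 in the other groups. Gm26592 was low in LH only, at 0.917 ± 0.228 against 1.59 to 1.67.

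Elavl4, an RNA-binding protein of neurons, and Hspa4l, a chaperone, had both shocked groups above the unshocked ones. Elavl4 was 10.9 ± 1.63 in LH, 8.44 ± 1.32 in NLH, 6.22 ± 0.446 in Ctrl and 5.95 ± 0.474 in HC. Hspa4l was 23.6 ± 1.64, 20.3 ± 1.7, 16.4 ± 1.42 and 15.5 ± 0.932 in the same order (mean ± SD, n = 4). The differences from Ctrl and HC were not tested here.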
